A study of Mus musculus with 8 samples.

Results

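The 7 neuropeptide genes best known from the hypothalamus, Oxt, Avp, Trh, Gal, Pmch, Hcrt and Cartpt, were followed library by library in mRNA sequenced from mouse cerebral cortex. They are 7 of the 55416 genes in the count table, found by their symbols, and they were chosen on their levels in these same libraries, so what follows describes their levels and is no test of them. Cortex from 4 mice carrying L192P on 1 copy of the endogenous Ago2 gene (AGO2_L192P/+, here L192P) was set against cortex from 4 wild-type mice (WT). The methods of the study name the mouse substitution L193P, and its results and the labels name it L192P. Ago2 encodes Argonaute 2, the protein that carries miRNAs to their target mRNAs. The knock-in was made by CRISPR/Cas editing of C57BL/6JUke zygotes, founders were crossed to C57BL/6 wild-type mice, and heterozygotes were bred to wild-type animals, so every L192P mouse also kept 1 wild-type allele. Age, sex, the number of founders behind the line and whether cortices were pooled are not given in the sources used here, and no agent was given to either genotype.

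Neuropeptides are cut from longer precursors in the secretory pathway, stored in dense-core vesicles and released to act on G-protein-coupled receptors, often far from the cell that made them. Oxytocin (Oxt) and vasopressin (Avp) are made by magnocellular neurons of the paraventricular and supraoptic nuclei, thyrotropin-releasing hormone (Trh) and galanin (Gal) by neurons of several hypothalamic nuclei, and melanin-concentrating hormone (Pmch) and orexin (Hcrt) by separate neurons of the lateral hypothalamus. Cartpt, the precursor of the CART peptides, is made in the hypothalamus and also in other forebrain regions, cortex and striatum among them. The hypothalamus lies below the thalamus and is not part of the cerebral cortex.

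On GRCm39, Oxt lies on the plus strand of chromosome 2 from 130418091 to 130418974 and Avp on the minus strand from 130422540 to 130424640, so that both genes point at each other across 3565 bases. Each has 3 exons in its canonical transcript. The pair is shown here with the 250 bases before each start, since their levels moved together more closely than those of any other gene with either of them. The sequences and positions are from RefSeq on GRCm38.p6, read 5′ to 3′ on each gene's own strand, chr2:130575919-130576168 on the plus strand for Oxt and chr2:130582589-130582838 on the minus strand for Avp. Capitals mark the matches to TGACC on either strand (GGTCA on the other strand), a half-site of nuclear hormone receptors, to CACGTG, the canonical E-box, and the longest run of bases that both windows share.
Oxt: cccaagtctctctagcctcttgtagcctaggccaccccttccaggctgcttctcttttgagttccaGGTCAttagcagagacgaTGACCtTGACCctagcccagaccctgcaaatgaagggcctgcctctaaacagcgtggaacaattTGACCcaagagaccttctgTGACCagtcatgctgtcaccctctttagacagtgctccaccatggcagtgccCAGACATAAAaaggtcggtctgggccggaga
Avp: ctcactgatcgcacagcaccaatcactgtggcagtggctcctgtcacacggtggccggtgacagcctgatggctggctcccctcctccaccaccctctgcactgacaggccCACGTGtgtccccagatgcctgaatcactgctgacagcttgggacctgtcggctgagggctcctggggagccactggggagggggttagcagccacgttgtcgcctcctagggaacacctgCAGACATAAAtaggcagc
The Oxt window held 5 matches to TGACC and the Avp window 0, and 35.2% of the 32851 RefSeq promoters of this length held at least 1. CACGTG was found 1 time before Avp and 0 times before Oxt, against 6.02% of all promoters with a match. Neither window held TATAAA, which 12.4% of promoters did. The shared run CAGACATAAA, 10 bases long, stood 1 time in each window, close to the start, and 18 of the 32851 promoters (0.0548%) had it. A match is a description of the letters and not evidence of a bound site.

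Some properties of the libraries bear on these genes. Totals ran from 20396357 to 43575900 counts. Both replicate 1 libraries stood apart in Xist, the RNA that coats the inactive X chromosome, at 0.934 (L192P 1) and 1.82 (WT 1) normalized counts against 5185 to 7257 in the other 6. Markers of cortical excitatory neurons were present in every library, Slc17a7 at 28887 to 34033 normalized counts (read counts scaled by the DESeq2 size factor of each library). The labels give the same replicate numbers to both genotypes, and same-numbered libraries deviated together, so blocked values are given for each of the 7 genes or lists whose calls it altered. Across the transcriptome DESeq2 called 253 of 18627 genes at an adjusted p under 0.05 (1.36%), 147 higher in L192P (0.789%) and 106 lower, a split that was 168 to 64 when libraries were scaled by their totals. In tissue RNA, more cells of a type and more RNA per cell cannot be told apart.

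Oxt was near the detection limit in WT and well above it in L192P. Its normalized counts were 2.73, 5.08, 7.60 and 4.68 in WT 1 to 4 (3, 9, 7 and 4 reads) and 145, 19.3, 143 and 155 in L192P 1 to 4 (155, 17, 124 and 129 reads). L192P 1, 3 and 4 were close to each other, L192P 2 was far below them, and even L192P 2 was above every WT library. The means were 115 ± 64.2 and 5.03 ± 2.003 (SD, n = 4 each), giving a log2 fold change of 4.53 (standard error, SE, 0.72) at a DESeq2 adjusted p of 3.7e-07.

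Avp, the neighbour of Oxt, was higher in the same 3 L192P libraries. WT 1 to 4 had 21.9, 10.7, 11.9 and 10.5 normalized counts, and L192P 1 to 4 had 329, 19.3, 459 and 220. L192P 2 fell among the WT libraries, below WT 1, so the genotypes overlapped, although each L192P library exceeded the WT library of its own number. The mean was 257 ± 186 in L192P and 13.8 ± 5.43 in WT (SD, n = 4 each), and the log2 fold change 4.22 (SE 0.83) at an adjusted p of 0.000155. In L192P 2 both genes had exactly 17 reads. Reads of Oxt came to 0.440, 0.312 and 0.701 of those of Avp in L192P 1, 3 and 4 and to 0.125, 0.474, 0.636 and 0.444 in WT 1 to 4, so the balance between both hormones varied within each genotype and the ranges overlapped. Without L192P 2 the log2 fold changes were 4.89 for Oxt and 4.61 for Avp, and without L192P 3 they were 4.41 and 3.78. Leaving out both replicate 1 libraries gave 4.19 for Oxt and 4.39 for Avp, and both still passed the test. They also passed with edgeR (adjusted p 0.00957 and 0.0288) but not with limma-voom (0.143 and 0.341), the highest of ranges that began at 8.6e-36 for Oxt and 2.9e-49 for Avp, both without L192P 2. With the replicate block Oxt had no adjusted p (log2 fold change 4.23), and Avp was called (3.72).

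Trh encodes the peptide that drives release of thyroid-stimulating hormone from the pituitary. Its normalized counts were 225, 138, 112 and 190 in L192P 1 to 4 and 135, 98.9, 60.8 and 56.2 in WT 1 to 4. Every L192P library was above the WT library of its number, but WT 1 exceeded L192P 3, so the groups overlapped. The mean was 166 ± 51.1 against 87.7 ± 36.8 (SD, n = 4 each), giving a log2 fold change of 0.92 (SE 0.27). The adjusted p was 0.0547, just past the threshold of 0.05. With the replicate number as a block it was 0.0022 at a log2 fold change of 0.94, and over all 17 alternatives it ran from 0.00071 to 0.273, under the threshold in 4 of them. In the blocked fit 1.82% of 12536 genes were called higher in L192P. The 3 alternatives other than the block that brought Trh under the threshold left out WT 1 (0.00071), L192P 3 (0.0184) or both replicate 1 libraries (0.0107).

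Gal, the precursor of galanin, was lower in level but did not overlap between genotypes. L192P 1 to 4 had 45.8, 20.5, 14.99 and 39.5 normalized counts, WT 1 to 4 had 9.11, 11.9, 9.78 and 3.51. L192P 1 and 4 were the high libraries, as for Trh, and L192P 3, the highest for Avp, was the lowest of the genotype here. The means were 30.2 ± 14.8 and 8.56 ± 3.57 (SD, n = 4 each), and the log2 fold change was 1.78 (SE 0.48) at an adjusted p of 0.0209. That call was lost in 6 of the 15 alternatives that gave Gal an adjusted p, among them edgeR (0.129) and the fits without L192P 1 (0.159), L192P 4 (0.162), WT 3 (0.0744) or WT 4 (0.145), and the range over the 15 was 0.00867 to 0.186.

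Pmch and Hcrt, the peptide genes of the lateral hypothalamus, were high in 1 library. Pmch had 262 normalized counts in L192P 3, 16.8 in L192P 1, 2.28 in L192P 2 and 0 in L192P 4, and 3.64, 1.69, 0 and 0 in WT 1 to 4. Hcrt had 178 in L192P 3, 12.1 in L192P 1, 1.14 in L192P 2 and 0 in L192P 4, and 3.64, 2.82, 2.17 and 3.51 in WT 1 to 4. The highest library exceeded the second, L192P 1 for both genes, 15.6-fold for Pmch and 14.6-fold for Hcrt, and the remaining 6 libraries held at most 5 reads of either. A count of 0 allows up to 3 reads, or 3.59 normalized counts in L192P 4.

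The genotype means of this pair therefore rest on L192P 3. For Pmch they were 70.2 ± 128 and 1.33 ± 1.73, and for Hcrt 47.7 ± 86.7 and 3.04 ± 0.68 (L192P and WT, SD, n = 4 each). The fitted log2 fold changes were 5.69 (SE 2.25) and 3.97 (SE 1.66). DESeq2 gave neither an adjusted p because a single library dominated each fit (its Cook filter), and with that filter off the adjusted p was 0.269 for Pmch and 0.330 for Hcrt. Without L192P 3 the log2 fold changes were 2.21 and 0.59, and with the replicate block 2.16 and 0.59. Among the 3 alternatives that gave each gene an adjusted p it was 0.104 to 0.397 for Pmch and 0.126 to 0.330 for Hcrt.

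Cartpt differed from the other 6 genes in being well detected and even in both genotypes. L192P 1 to 4 had 280, 323, 265 and 385 normalized counts and WT 1 to 4 had 322, 230, 293 and 247. The ranges overlapped widely, and L192P was above its same-numbered WT library in 2 of 4 pairs. The means were 313 ± 53.5 and 273 ± 42.3 (SD, n = 4 each), giving a log2 fold change of 0.20 (SE 0.15) at an adjusted p of 0.774. Over the 17 alternatives the log2 fold change stayed between 0.09 and 0.34.

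**Figure D1:**
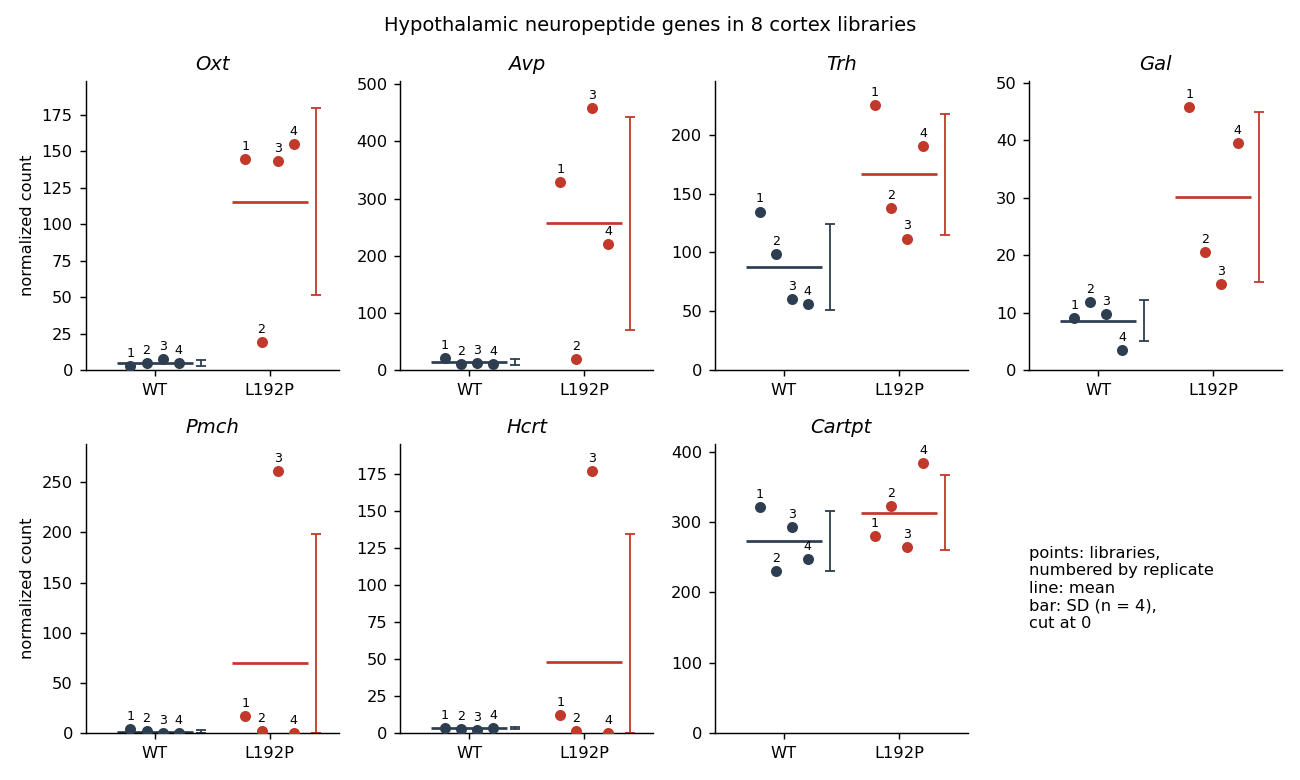
Normalized count of each of the 7 genes (vertical axis, from 0, its own scale per gene) in the 4 WT and 4 L192P libraries, each point numbered by replicate, with the mean as a line and the SD as a bar (n = 4, cut at 0). Oxt and Avp are high in L192P 1, 3 and 4, Pmch and Hcrt in L192P 3, at 262 and 178, while Cartpt lies between 230 and 385 in every library.

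Set together, 3 of the 5 genes with an adjusted p were called, Oxt, Avp and Gal, all higher in L192P, beside a background of 0.789% of all genes tested in that direction. Oxt and Gal had every L192P library above every WT library, as did 525 (3.06%) of the 17145 genes whose normalized count averaged 10 or more. All 7 genes passed that minimum, Pmch and Hcrt only through L192P 3, their means over the other 7 libraries being 3.49 and 3.63. Oxt and Gal passed it only through their L192P libraries, their WT means being 5.03 and 8.56. Because the genes were chosen on these libraries, nothing is read from either share. The median log2 fold change over the 5 genes with an adjusted p was 1.78, against 0.0019 over all genes tested. Over all 7 it was 3.97, the value of Hcrt itself, and 2.001 without L192P 3. Spread within the genotypes was unusual for most of them. Only 0.0233% of the 17145 genes had a larger DESeq2 dispersion than Pmch, 0.0525% than Hcrt, 0.117% than Avp and 0.204% than Oxt, whereas for Gal it was 5.17%, for Trh 18.8% and for Cartpt 37.8%. The values of Pmch and Hcrt rest on L192P 3, as do their likenesses to other genes.

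**Figure D2:**
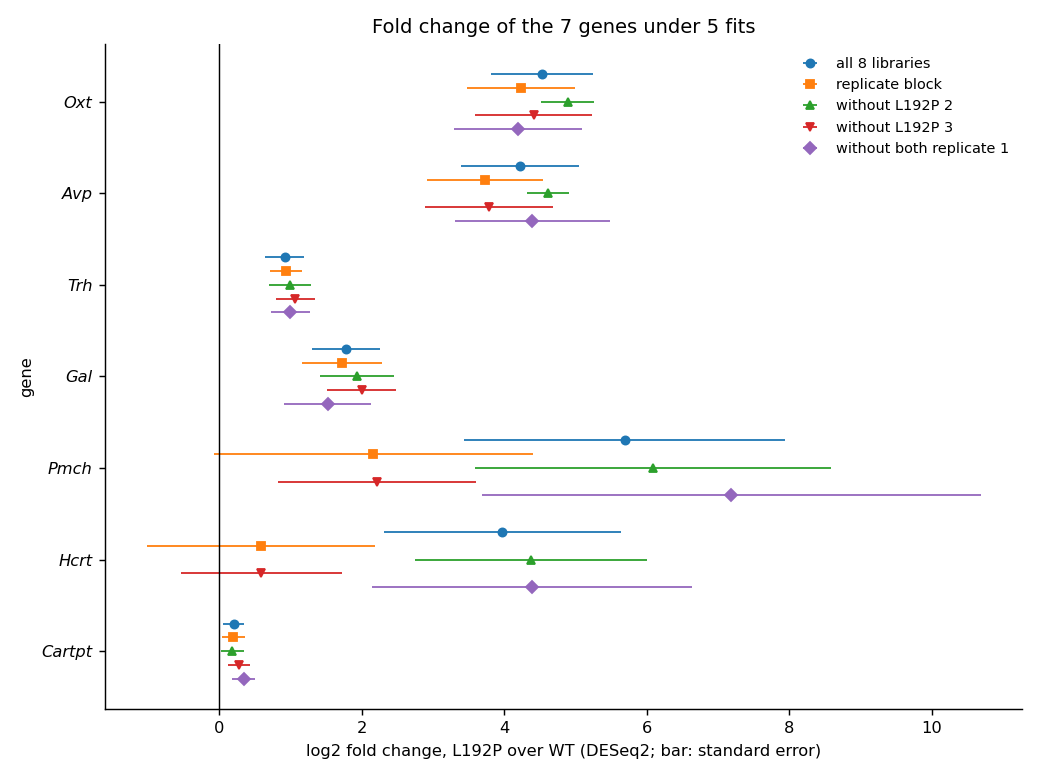
DESeq2 log2 fold change of L192P over WT (horizontal axis, bars are standard errors) for each gene under 5 fits, namely all 8 libraries, the replicate block, and the fits without L192P 2, without L192P 3 and without both replicate 1 libraries. Oxt and Avp stay between 3.72 and 4.89, while Pmch moves from 5.69 to 2.21 and Hcrt from 3.97 to 0.59 without L192P 3.

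Levels of different genes are compared here per kilobase of exon. In WT the order of the mean normalized count per kilobase was Cartpt (102 ± 15.8), Trh (45.9 ± 19.2), Avp (17.2 ± 6.78), Oxt (9.32 ± 3.72), Gal (7.01 ± 2.92), Hcrt (4.03 ± 0.90) and Pmch (1.78 ± 2.31, SD, n = 4). The WT ranges of Cartpt, Trh and Avp did not overlap each other, but from Avp downward each gene overlapped the next. In L192P the order was Avp (321 ± 232), Oxt (214 ± 119), Cartpt (117 ± 19.97), Pmch (93.6 ± 171), Trh (87.1 ± 26.7), Hcrt (63.3 ± 115) and Gal (24.7 ± 12.1), and every neighbouring pair overlapped. By their means Avp and Oxt thus stood below Cartpt and Trh in WT and above all the others in L192P. The latter did not hold in every library. Within L192P, Avp ran from 24.2 to 573 and Oxt from 35.9 to 287 per kilobase, both lowest in L192P 2. Cartpt ran from 99.1 to 144 and Pmch from 0 to 349.

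The 8-library profile of each gene was compared with that of 17144 others by the root mean square difference of log2(normalized count + 1) centred per gene, where 0 would be the same profile. Avp was the nearest of all genes to Oxt, and Oxt the nearest to Avp, at a difference of 0.75. Next to Oxt came Pou4f1 (1.02), a POU transcription factor of the habenula and sensory neurons, and Otp (1.15), a homeodomain factor required for hypothalamic neuroendocrine neurons. Next to Avp came the same genes, Otp at 0.89 and Pou4f1 at 0.91. Otp had 64.5, 12.5, 41.5 and 43.1 normalized counts in L192P 1 to 4 and 11.8, 1.13, 1.09 and 1.17 in WT 1 to 4. Pou4f1 had 21.5, 3.41, 29.98 and 19.2 in L192P and 2.73, 1.13, 3.26 and 3.51 in WT. Both were lowest in L192P 2 within their genotype, as were Oxt and Avp.

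**Figure D3:**
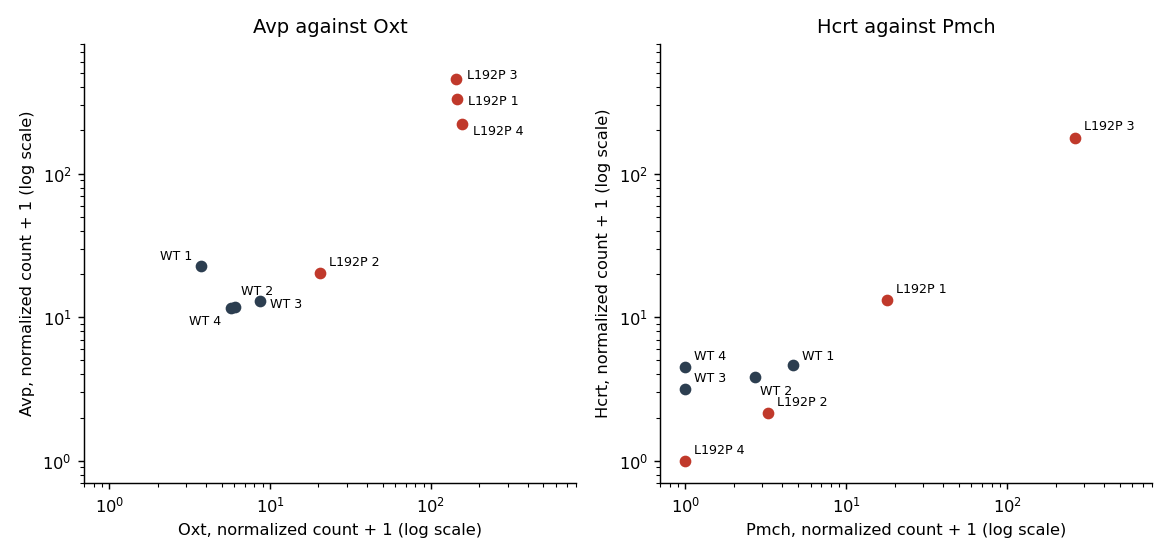
Normalized count + 1 of Avp against Oxt (left) and of Hcrt against Pmch (right), both axes on a log scale, 1 point per library with L192P in red and WT in dark blue. L192P 1, 3 and 4 lie together at the upper right for Oxt and Avp, with L192P 2 near the WT libraries, and L192P 3 alone lies at the upper right for Pmch and Hcrt.

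Pmch and Hcrt also lay close, at a difference of 0.98, each the second nearest gene to the other. Gata3, a zinc finger factor of midbrain and hindbrain neurons among others, was nearest to both (0.95 to Pmch, 0.84 to Hcrt) and had 65.7 normalized counts in L192P 3 against 0 to 9.34 in the other 7 libraries. Next came Chrna6 for Pmch (1.51), a nicotinic receptor subunit of dopamine neurons, at 87.6 in L192P 3 against 2.34 to 9.34 elsewhere. For Hcrt it was Shox2 (1.07), a homeodomain factor expressed in thalamus, with 287 in L192P 3 and 226 in L192P 1 against 3.59 to 57.6 in the rest. Among the 17144 genes ranked by likeness to Hcrt, Avp came at 3714 and Oxt at 16926. The order of these neighbours depended on the constant added to each normalized count. With 5 in place of 1, Pmch and Hcrt were each nearest to the other (0.41). Gata3 then ranked 2 for both, Chrna6 ranked 4 for Pmch and Shox2 ranked 9 for Hcrt.

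Trh was nearest to Trhr (0.27), which encodes a receptor of its own peptide, then to Gpr101 (0.28), an orphan receptor, and to Ngb (0.29), which encodes neuroglobin. Trhr had 141, 137, 115 and 137 normalized counts in L192P and 144, 74.0, 46.7 and 53.9 in WT, so that WT 1 was its highest library and the genotypes overlapped. Gal was nearest to Cngb1 (0.46), a cyclic nucleotide-gated channel subunit, to Rnf138rt1 (0.48) and to Ngb (0.51), and Trh came next (0.54). Ngb had 376, 302, 288 and 338 in L192P and 185, 147, 136 and 103 in WT, with no overlap. Cartpt was nearest to BC002059 (0.065), Gabrg1 (0.090), a GABA-A receptor subunit gene, and Slco5a1 (0.098), all of nearly even level. Small differences are easier to reach for even genes, so the distances of Cartpt and Oxt are not on a par. These likenesses rest on 8 libraries that share 2 genotypes and are descriptions.

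**Figure D4:**
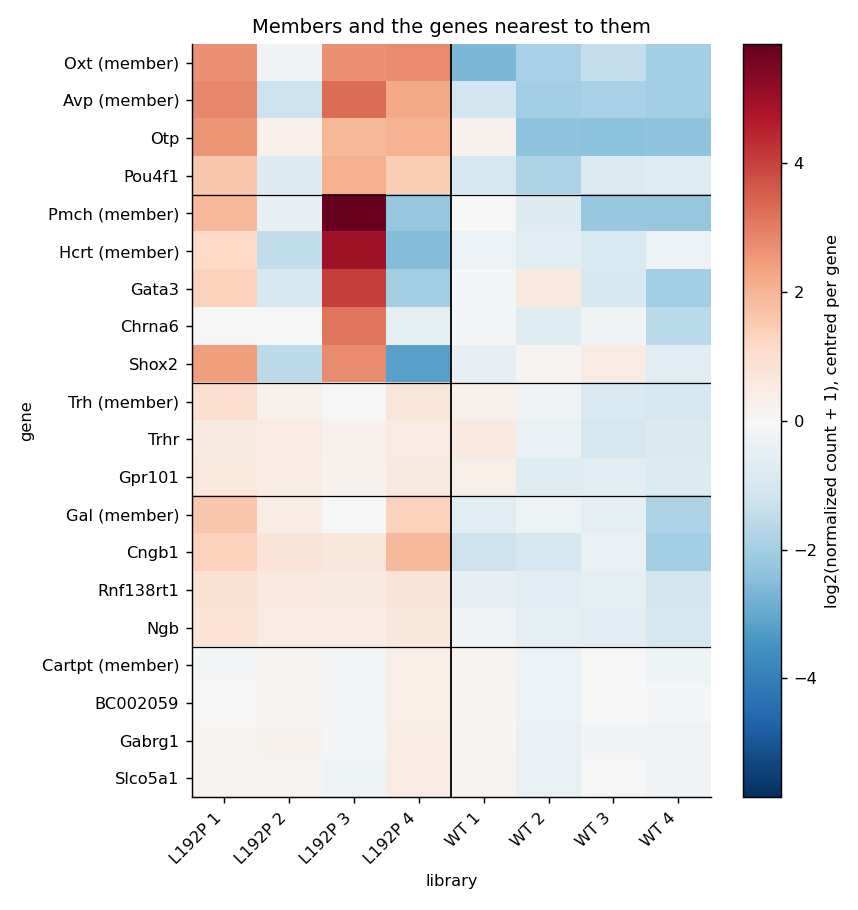
Centred log2(normalized count + 1) of the 7 genes and their nearest genes (rows) in the 8 libraries (columns, L192P left of the line, WT right), red above and blue below each gene's mean. Oxt and Avp share high values in L192P 1, 3 and 4, Pmch, Hcrt and Gata3 peak in L192P 3, and Trh and Gal differ more evenly between genotypes.

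Receptors for these peptides were examined next. Of the 12 receptor genes 9 had an adjusted p, all 9 with a positive log2 fold change (median 0.30, against 0.0019 over all genes tested) and 0 called by DESeq2, edgeR or limma-voom, with 3 at an unadjusted DESeq2 p under 0.05. Mchr1, the receptor of melanin-concentrating hormone, had the highest level, 604 to 687 normalized counts in L192P and 587 to 626 in WT. Oxtr, the oxytocin receptor, had 216 to 263 against 160 to 260, and Trhr2, the second receptor of thyrotropin-releasing hormone, 70.3 to 107 against 69.5 to 82.9. The summed level of the list was 1261 to 1331 in L192P and 1031 to 1254 in WT. Outside the rule for naming and after their values were seen, Avpr1a, a vasopressin receptor of brain, had 10.3 to 31.1 against 1.17 to 16.4 (log2 fold change 1.502, adjusted p 0.244), and Galr1, a galanin receptor, 18.4 to 26.2 against 9.78 to 13.7, without overlap (0.87, adjusted p 0.399). With the replicate block Trhr was the 1 receptor called, at a log2 fold change of 0.85 against 0.73 without it. Trhr was also called in the fits without WT 1 and without both replicate 1 libraries, and Oxtr in the fit without WT 1.

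Genes for processing and breaking down such peptides differed little between genotypes. All 10 had an adjusted p, with a median log2 fold change of -0.022 and 0 called by DESeq2, edgeR or limma-voom (1 at an unadjusted DESeq2 p under 0.05). Cpe, the carboxypeptidase that trims cut precursors, had 34354 to 41189 normalized counts in L192P and 35547 to 41491 in WT. Pcsk2, a convertase that cuts them, had 8404 to 9148 against 9116 to 10099. Its log2 fold change was -0.13, and it was the gene with the unadjusted DESeq2 p under 0.05 (0.031, adjusted p 0.437). Pcsk1n, which encodes an inhibitor of the related convertase, and Pam, the amidating enzyme, had log2 fold changes of 0.02 and -0.03.

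Among other peptide genes of the hypothalamus none was called in the fits of all 8 libraries. Of 14 listed, Kiss1, Npvf and Prlh had no read in any library, 6 had an adjusted p, and 0 were called by DESeq2, edgeR or limma-voom (1 at an unadjusted DESeq2 p under 0.05), with 3 positive and 3 negative log2 fold changes and a median of 0.20. Nts, encoding neurotensin, had 232 to 323 normalized counts in L192P and 87.6 to 284 in WT. It was called in the fits without WT 1 and without both replicate 1 libraries. Gnrh1, encoding gonadotropin-releasing hormone, had 4.67 to 19.2 against 1.09 to 5.46 (log2 fold change 1.62, DESeq2 adjusted p 0.364). It was the gene with the unadjusted p under 0.05 and was named after its values were seen. Crh, encoding corticotropin-releasing hormone, had 143 to 237 against 197 to 234. Pomc, the melanocortin precursor, had 28.4 to 134 against 27.2 to 174, and Agrp, its antagonist's gene, 9.10 to 14.9 against 5.65 to 10.02. The last pair is made by neurons of the arcuate nucleus.

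Transcription factors of the developing and adult hypothalamus gave 1 call among 9 with an adjusted p, out of 18 listed (median log2 fold change 0.75, 7 positive, 6 of the 18 at an unadjusted p under 0.05). Otp was that gene, at a log2 fold change of 3.41. Adjusted p was available in 15 alternatives and under the threshold in 13, edgeR (0.0550) and limma-voom (0.0659) being the exceptions. With the replicate block Otp had no adjusted p. Hmx3, named after its values were seen, had 3.46 to 9.10 normalized counts in L192P (3 to 8 reads) and 0 in every WT library. It had no adjusted p in the main fit and was called only with independent filtering off. None of the 4 most abundant was called by DESeq2, edgeR or limma-voom. Six3, also a factor of striatal neurons, had 532 to 675 normalized counts in L192P and 567 to 730 in WT, Isl1 134 to 200 against 116 to 153, Nkx2-2 98.1 to 143 against 71.9 to 153 and Lhx9, the most variable of them, 45.5 to 172 against 12.9 to 94.5. Nkx2-1, next in level and named after its values were seen, had 62.6 to 107 against 36.2 to 63.0 (log2 fold change 0.71, adjusted p 0.138). Sim1, which acts with Otp in paraventricular neurons and was singled out after its values were seen, had 19.6, 1.14, 23.1 and 14.4 in L192P and 13.7, 0, 0 and 0 in WT. Like Avp it was low in L192P 2, and like Avp and Otp its highest WT library was WT 1.

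Markers of tissue next to the cortex were read in the same libraries. Of 8 thalamus markers 2 were called, all 8 had positive log2 fold changes (median 0.73), and their summed level was 5087 to 9034 normalized counts in L192P against 4276 to 4820 in WT, highest in L192P 3 and then in L192P 1. Gbx2 (log2 fold change 1.99) and Calb2 (1.11) were the called genes, Gbx2 a thalamic homeodomain factor and Calb2 the gene of calretinin, which cortical interneurons also make. Rora had 1691 to 2272 in L192P against 1729 to 2141 in WT, Slc17a6, the vesicular glutamate transporter of subcortical neurons, 741 to 1711 against 545 to 764, and Prkcd 483 to 1416 against 482 to 801. With the replicate block 3 of the 6 tested were called, all higher, Calb2 and Slc17a6 (log2 fold changes 1.17 and 0.71) and Ntng1 (0.43), the last named after its values were seen, and Gbx2 had no adjusted p. Neither call of the unblocked fit held in every alternative. Gbx2 missed the threshold in 5 of 14 and Calb2 in 5 of 17, both without L192P 3 among them (adjusted p 0.101 and 0.116, ranges over the alternatives 0.00443 to 0.144 and 9.0e-07 to 0.116).

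The 7 markers of monoamine nuclei were highest in L192P 3 in 6 cases and summed to 2160 there against 562 to 689 in the other L192P libraries and 460 to 559 in WT. None of the 5 with an adjusted p was called by DESeq2, edgeR or limma-voom (3 at an unadjusted DESeq2 p under 0.05, median log2 fold change 0.73). Slc6a3, the dopamine transporter, had 630 normalized counts in L192P 3 and 1.09 to 10.5 in the other 7, Th, which makes the dopamine precursor, 368 against 60.8 to 121, and Slc18a2 384 against 137 to 182. Ddc, which makes dopamine and serotonin from their precursors, was highest there too (610), but its other L192P libraries, 249 to 286, also lay above WT, 165 to 185. It was called in 3 of 17 alternatives, with the replicate block (log2 fold change 0.93, the 1 monoamine gene called) and without L192P 2 or L192P 3. Slc6a4, the serotonin transporter that defines raphe neurons, was at 0 in 7 libraries and had 1.15 in L192P 3. The library that carried Pmch and Hcrt was thus also the highest in dopamine-neuron genes and in summed thalamus markers. Barhl1, a homeodomain transcription factor named after its values were seen, had 24.2 in L192P 3 and at most 5.61 elsewhere.

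Of the cortical and striatal markers few passed the test, and their summed levels lay lower in L192P. All 8 markers of cortical excitatory neurons had negative log2 fold changes (median -0.18, 3 at an unadjusted DESeq2 p under 0.05, 0 called by DESeq2, edgeR or limma-voom), and their sum was 39275 to 44151 in L192P against 44833 to 46603 in WT. Tbr1 had 2380 to 3439 normalized counts in L192P against 3343 to 3983 in WT, Cux2 1919 to 2060 against 1961 to 2399 and Neurod2 1938 to 2254 against 2016 to 2473. With the replicate block 3 of the 8 were called, all lower, Slc17a7 and Tbr1 (log2 fold changes -0.13 and -0.25) among them, where 2.43% of the 12536 genes tested were lower in L192P. All 8 striatum markers were negative too (median -0.29), 1 of them called, and 5, all lower, with the replicate block, among them Ppp1r1b (-0.21) and Adora2a (-0.29). They summed to 22832 to 28368 against 29009 to 34977. Ppp1r1b had 10022 to 13073 against 12731 to 14448, Rgs9 2040 to 2669 against 2315 to 2875 and Adora2a 1844 to 2260 against 2223 to 2926.

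Choroid plexus and pituitary markers varied within both genotypes and did not separate them. The 6 choroid plexus genes summed to 16171 to 37416 in L192P and 13885 to 31891 in WT (median log2 fold change 0.11), led by Ttr, and the 7 pituitary genes to 36.9 to 74.0 and 35.8 to 108 (median -0.05, 3 with an adjusted p). DESeq2, edgeR and limma-voom called 0 genes of either list, and 0 had an unadjusted DESeq2 p under 0.05. Tshb had the highest mean level of the pituitary list, 19.2 to 51.2 in L192P and 20.9 to 37.3 in WT. Prl had 0 to 37.1 against 0 to 30.4, and Lhb 3.59 to 12.5 against 6.52 to 17.3. Gh had 0 to 8.39 against 0 to 26.9. Of the 7 pituitary genes 4 were highest in WT 4. Pou1f1, the factor that defines several pituitary lineages, stayed at or under 4.68 in every library, and Fshb at or under 1.17. Both were named outside the rule.

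**Figure D5:**
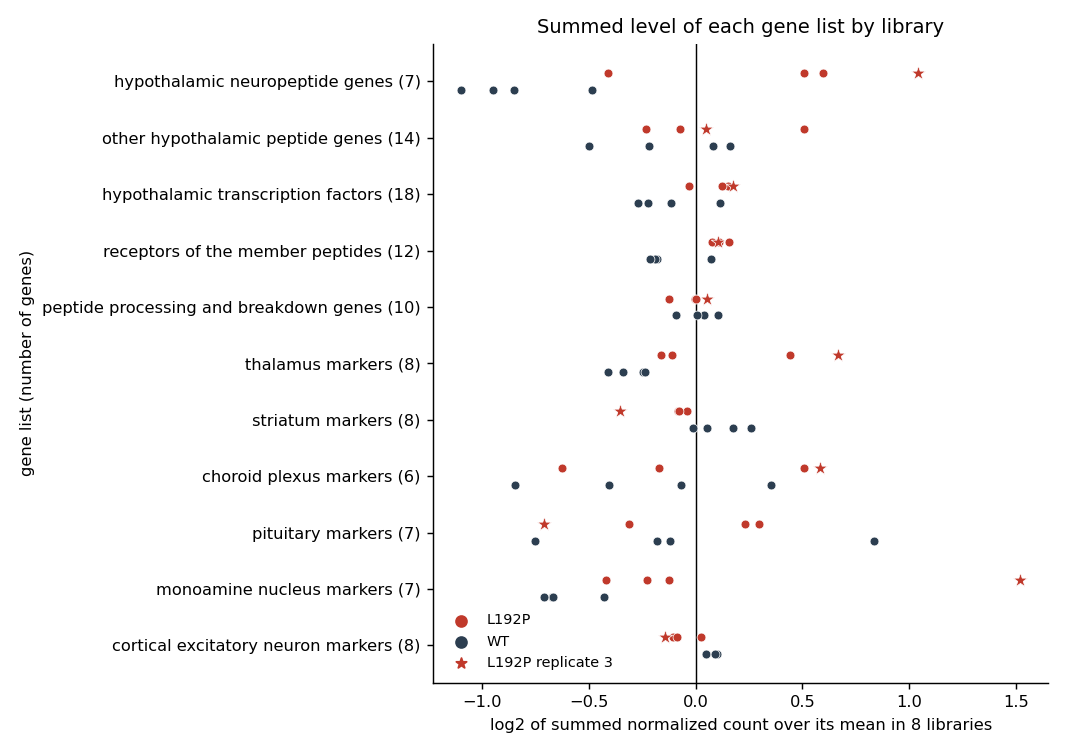
Summed normalized count of each gene list in a library, as log2 of its ratio to the mean over the 8 libraries (horizontal axis), L192P in red with a star for L192P replicate 3 and WT in dark blue below. The sums of the 7 neuropeptide genes, their receptors, thalamus markers and monoamine nucleus markers lie higher in every L192P library than in any WT library. Those of cortical and striatal markers lie lower.

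Beside the neuropeptide genes these values stood as follows. The sum over the 7 was 1054, 523, 1433 and 989 in L192P 1 to 4 and 498, 361, 386 and 325 in WT 1 to 4, all L192P above all WT. L192P 3 led in the neuropeptide sum, the thalamus sum and the monoamine sum and was lowest in the sums of cortical and striatal markers. L192P 4 had 155 of Oxt and 220 of Avp with a thalamus sum of 5087, the lowest of the genotype. The thalamus sum is not a measure of hypothalamic tissue. Of the 18 hypothalamic transcription factors 3 were highest in L192P 4, while their sum there, 1089, was the lowest of the genotype. Six3, also a factor of striatal neurons, held 561 of that sum in L192P 4. The sum is therefore not a measure of hypothalamic tissue either. Otp was at 43.1 there, against 1.09 to 11.8 in WT. Without L192P 3, Oxt and Avp both still passed. The part of the tissue markers, or of where the cortex was cut, in the levels of Oxt, Avp, Pmch and Hcrt was not tested.

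The remaining genes are annotated on GRCm39 as follows. Trh is on chromosome 6 from 92219021 to 92221631 (minus strand, 3 exons), Gal on chromosome 19 from 3459912 to 3464881 (minus strand, 6 exons), Pmch on chromosome 10 from 87926933 to 87928237 (plus strand, 3 exons), Hcrt on chromosome 11 from 100651895 to 100653762 (minus strand, 2 exons) and Cartpt on chromosome 13 from 100034990 to 100047006 (minus strand, 3 exons). Exons of Pmch overlap those of Parpbp on the other strand, which had 4.35 to 14.8 normalized counts in all libraries and 8.07 in L192P 3, where Pmch was at 262. Trh and Hcrt each overlap a gene model on the other strand, Gm67229 and Gm73622, that is not a row of the count table. The libraries were stranded, but whether the counting used strand is not stated, so reads from either strand of these stretches cannot be told apart.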

How the data were processed

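RNA from the cerebral cortex of 4 L192P and 4 WT mice was extracted (RNeasy microkit) and made into TruSeq Stranded mRNA libraries. According to the labels and the submitters' processing notes the authors aligned reads with STAR 2.7.9a to GRCm39, counted them per gene with featureCounts 1.5.1 and used DESeq2 1.40.2. The authors deposited raw counts per gene and library, which all tests here use. The deposited normalized signal, read counts divided by a DESeq2 size factor, differed by at most 5.2e-10 from counts over size factors computed here. Strand setting and annotation release are not given in the sources used here.

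DESeq2 1.42.0 (R 4.3.3) was fitted to all 55416 rows with genotype as the only term, and adjusted p-values (Benjamini-Hochberg, threshold 0.05) are over all genes tested. Fold changes are unshrunken. The 7 genes, the 10 other lists (98 genes) and the alternatives were chosen with earlier results of these data known. The genes named were the 7, every called gene and up to 4 of the highest mean level in each list, and the 3 nearest in profile to each of the 7, with exceptions stated, and results of some list genes are not reported here. Likeness was taken over genes averaging 10 or more normalized counts, with a pseudocount of 1. Levels per kilobase used exon lengths of GENCODE M39 on GRCm39, in which 98.8% of gene identifiers were found, and all 7 genes matched a RefSeq promoter. Alternatives were edgeR 4.0.16 (quasi-likelihood), limma 3.58.1 (voom), scaling by TMM or by totals, keeping only genes that reached 10 counts in 4 or more libraries, no independent filtering, no Cook filter, the replicate block, and leaving out each library or both replicate 1 libraries. The programs were tested on simulated data. Totals of 20396357 to 43575900 counts make folds of genes with few reads coarse, and the limit of 3 reads for a count of 0 covers counting error only.

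Libraries of 1 genotype differed from each other by a chi-square per degree of freedom of 6.04 to 25.3, so each counted as a replicate. Replicate numbers come from the labels. Deviations from the genotype mean correlated at 0.63, 0.38, 0.23 and 0.33 between same-numbered libraries over 13422 genes and at -0.38 to 0.14 between the 12 other pairs, so the numbers were taken to pair the libraries. Nothing states that libraries came from separate litters or were prepared independently, so p-values measure the spread between these libraries.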

Additional observations from a re-analysis of the deposited data

Results flagged for a closer look

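Within each genotype, the gap of the highest or lowest library to the nearest other, as a share of the range, was screened for the 7 genes, the list genes named by rule, the nearest genes and the list sums. Of 140 groups 20 passed Dixon's 95% critical value for 4 libraries. For independent groups chance would give about 1 in 20 (7.0 groups here). These groups are not independent. The nearest genes were picked for profiles like those of the 7 genes, and each list sum holds genes that were also screened alone. The 20 is therefore not to be weighed against the chance figure. L192P 3 stood apart in 10, WT 1 in 4, WT 2 in 3, and L192P 2, L192P 4 and WT 4 in 1 each. No explanation was tested.

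Among the neuropeptide genes, L192P 2 was low in Oxt (19.3 normalized counts against 143 to 155, gap share 0.914), L192P 3 was high in Pmch (262 against 0 to 16.8, 0.936) and Hcrt (178 against 0 to 12.1, 0.932), and WT 1 was high in Avp (21.9 against 10.5 to 11.9, 0.875). WT 1 was likewise high in Otp (11.8 against 1.09 to 1.17, 0.992), in Gpr101 (195 against 89.0 to 101, 0.886) and in the receptor sum (1254 against 1031 to 1055, 0.895).

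L192P 3 was high in Slc6a3 (630 against 3.74 to 9.58, 0.991), Th (368 against 76.6 to 104, 0.907), Ddc (610 against 249 to 286, 0.897), Chrna6 (87.6 against 5.99 to 9.34, 0.959), Gata3 (65.7 against 0 to 9.34, 0.858) and the monoamine sum (2160 against 562 to 689, 0.921). It was low in Rgs9 (2040 against 2564 to 2669, 0.833) and in the striatum sum (22832 against 27605 to 28368, 0.862).

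WT 2 was low in Agrp (5.65 against 9.37 to 10.02, 0.851) and high in Folr1 (232 against 89.0 to 112, 0.839) and in the monoamine sum (559 against 460 to 474, 0.863). Pomc was high in WT 4 (174 against 27.2 to 48.0, 0.858) and Prl in L192P 4 (37.1 against 0 to 5.69, 0.847).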

How the results depend on the processing

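Log2 fold changes of the 7 genes kept their sign under the 17 alternatives where a value was given (14 for Pmch and Hcrt). The genes called numbered 253, and 53 with edgeR, 45 with limma-voom, 533 with the replicate block, 500 without both replicate 1 libraries, and 112 to 496 without 1 library (496 without WT 1). Of the 7 genes 3 were called, 2 with edgeR (Avp, Oxt), 2 with the block (Avp, Trh), 2 to 4 without 1 library and 0 with limma-voom, where 4 had an unadjusted p under 0.05. In the blocked fit Oxt and Gal had no adjusted p, their levels falling under its independent filter (unadjusted p 2.2e-08 and 0.0022), with log2 fold changes of 4.23 and 1.73. Of the 98 list genes 4 were called, 1 with edgeR, 1 with limma-voom, 13 with the block, 9 without both replicate 1 libraries and 2 to 10 without 1 library. Total-count scaling moved the median of all genes by 0.0245 and gave 168 higher and 64 lower calls, against 147 and 106. The causes of these shifts were not tested. With so few WT reads of Oxt and Pmch, depth limits the precision of their folds.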

Other observations

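Both replicate 4 libraries held more Pomc, Prl and Gh RNA than the other 6, a pattern that did not follow the genotype. Pomc, the precursor of ACTH and melanocyte-stimulating hormone, had 134 normalized counts in L192P 4 and 174 in WT 4, against 27.2 to 65.7 in the other 6 libraries. Prl, encoding prolactin, had 37.1 and 30.4 there, against 0 to 13.0, and Gh, encoding growth hormone, had 8.39 and 26.9, against 0 to 5.65. These libraries were not alike in Oxt, at 155 in L192P 4 and 4.68 in WT 4. They were singled out after their values were seen.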
